A study of Drosophila melanogaster with 3 samples.

Results

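The wide intervals are the stretches of the fly genome over which the peak caller drew Knirps-GFP ChIP-seq peaks broader than its usual width. They were selected by width alone: a row of the optimal peak list was kept where its end minus its start was over 520 bp, and kept rows that overlapped were merged. Of the 7129 rows of that list, 459 passed, with 304 distinct start and end pairs, and they merged into 262 distinct intervals covering 205686 bp. Another 4793 rows were exactly 520 bp wide and 1877 were narrower. All samples were chromatin from whole embryos of mixed sex, collected 0 to 14 h after laying, of a transgenic Drosophila melanogaster line that stably expresses Knirps with a C-terminal GFP. ChIP-seq, in which DNA bound to a protein is pulled down and sequenced, was done with an antibody against GFP on 3 biological replicates, after sonication to fragments of 200 to 800 bp. The 3 replicates form a single group, with 1 control alignment in common and no second genotype or treatment. The embryos were pooled over many stages and all tissues, so a stage or cell type with few bound nuclei cannot be told apart from weak binding. The number of copies of the transgene, and how much of the kni locus it carries, are not given in the sources used here.

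Knirps is a gap gene product of the early embryo, a zinc-finger protein of the nuclear receptor family that has no ligand-binding domain. It is known as a short-range repressor that acts through nearby enhancers with corepressors such as CtBP, and it helps to set the segments of the abdomen. With its paralog knirps-like (knrl) it acts again later, in the head, the tracheal system and the wing veins. An interval in a peak list is the extent of the enriched DNA, and a summit is the position inside it where enrichment is highest. An interval may therefore hold several summits, each of which the deposited list gives as a row of its own.

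The DNA under the strongest summits of 5 of the most strongly bound wide intervals is printed here so that the sites behind the values can be read. Each run is 300 bases of the plus strand of Release 6 of the genome (dm6, RefSeq) centred on the summit. The runs come from intervals among the 15 strongest whose window touches no annotated UTR, but not all such intervals were used. The strongest interval, in CG45088 and CG6191, and the widest, near CG13334, were left out. Those upstream of CG42808, in CG11050 and in sbb, all stronger than the one at gish, were left out too. Capitals mark 2 short words on either strand, AGAGCA or its complement TGCTCT and GAGAG or its complement CTCTC, which can overlap as in TGCTCTC. The second is the core recognised by GAGA factor, and the first was picked with earlier results of these data known. The windows lie 484 bp upstream of the start of ssp3 (chr2L:18944295-18944594), 2902 bp upstream of hll (chr2L:14023950-14024249), 667 bp upstream of the opsin gene Rh5 (chr2L:12007337-12007636), in an intron of cno, which encodes the junction protein Canoe (chr3R:5215369-5215668), and 475 bp upstream of a start site of gish, a casein kinase gene (chr3R:16280265-16280564).
ssp3: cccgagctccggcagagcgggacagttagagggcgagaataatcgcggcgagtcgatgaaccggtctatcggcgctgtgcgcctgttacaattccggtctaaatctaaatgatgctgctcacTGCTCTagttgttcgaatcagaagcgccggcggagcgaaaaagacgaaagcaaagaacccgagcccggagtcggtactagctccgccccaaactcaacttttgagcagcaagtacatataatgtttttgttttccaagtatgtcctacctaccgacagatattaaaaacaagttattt
hll: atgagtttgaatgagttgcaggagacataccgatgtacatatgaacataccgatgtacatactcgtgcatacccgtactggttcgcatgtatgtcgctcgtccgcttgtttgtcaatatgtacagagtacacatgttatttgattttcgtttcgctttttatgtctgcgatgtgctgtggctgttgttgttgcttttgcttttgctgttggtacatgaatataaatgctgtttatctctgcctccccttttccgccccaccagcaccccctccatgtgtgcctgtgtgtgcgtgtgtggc
Rh5: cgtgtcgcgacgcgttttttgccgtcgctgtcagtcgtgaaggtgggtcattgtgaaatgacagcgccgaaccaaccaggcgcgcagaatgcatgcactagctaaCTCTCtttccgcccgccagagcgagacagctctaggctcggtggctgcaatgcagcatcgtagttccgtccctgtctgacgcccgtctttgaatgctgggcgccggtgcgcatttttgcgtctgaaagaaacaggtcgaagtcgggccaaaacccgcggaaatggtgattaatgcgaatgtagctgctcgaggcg
cno: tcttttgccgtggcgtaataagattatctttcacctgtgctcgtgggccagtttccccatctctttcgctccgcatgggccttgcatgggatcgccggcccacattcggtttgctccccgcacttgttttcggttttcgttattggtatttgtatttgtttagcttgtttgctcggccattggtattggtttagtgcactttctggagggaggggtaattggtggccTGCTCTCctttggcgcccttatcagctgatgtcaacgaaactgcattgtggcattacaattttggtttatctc
gish: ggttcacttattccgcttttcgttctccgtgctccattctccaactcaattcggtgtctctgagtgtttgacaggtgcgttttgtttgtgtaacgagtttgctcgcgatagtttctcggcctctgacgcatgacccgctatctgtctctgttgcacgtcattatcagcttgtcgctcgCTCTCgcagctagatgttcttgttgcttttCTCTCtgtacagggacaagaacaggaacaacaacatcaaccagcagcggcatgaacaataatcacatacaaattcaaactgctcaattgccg
The first word occurred 1 time in the ssp3 window and 1 time in the cno window and in none of the other windows. The second occurred 1 time in the Rh5 window, 1 time in the cno window and 2 times in the gish window. These counts do not stand for the strongest intervals as a whole. None of the intervals named above as left out held AGAGCA in the 200 bp around its strongest summit. Among them, only the one upstream of CG42808 held GAGAG there. The GC content of the windows ran from 45.7% (hll) to 57.3% (Rh5). Over all 262 wide intervals, 28.2% of 300-base windows held AGAGCA on either strand, against 19.9% of the windows of all optimal peaks.

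Wide intervals were concentrated among the strongest peaks. The authors' signal value, a measure of enrichment over the control whose scale is not stated, had a median of 849 over the 262 intervals and ran from 262 to 5038. Of the rows ranked 1 to 50 by signal value, 86.0% were over 520 bp wide and 14.0% were narrower than 520 bp, and no row had a width of exactly 520 bp. The share of wide rows was 52.0% for ranks 51 to 100, 28.4% for ranks 251 to 500 and 1.28% for ranks 4001 to 7129, where 92.6% of rows had the 520 bp width. The strongest 520 bp peak, 388 bp from the start site of rdx, had a signal value of 752 and ranked 401. Those near kek4 (745) and Tctp (744) followed. At the other side of the width threshold, the narrowest wide intervals were 521 bp near E(spl)malpha-BFM (signal value 626), 521 bp near pns (507) and 522 bp in Trl (363). The intervals themselves had a median width of 662 bp. The rule used width, and signal value enters the calling of an interval, so these values are a description of the members.

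**Figure D1:**
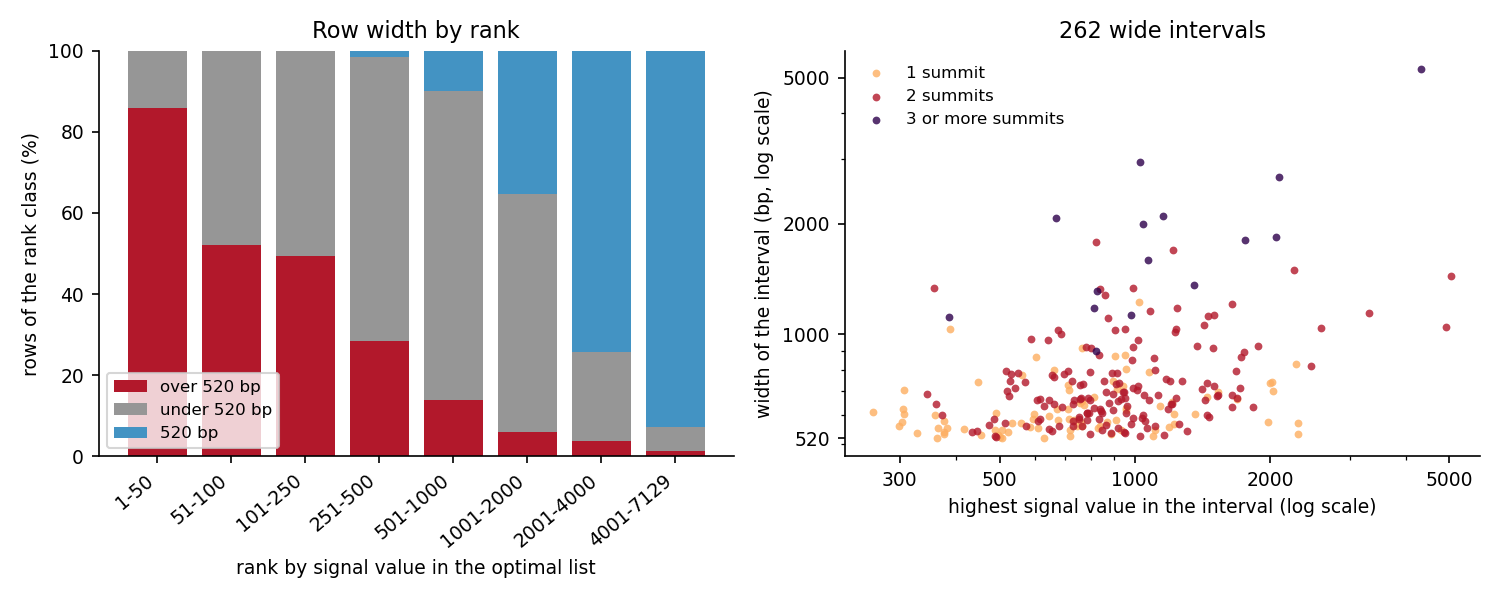
Left, share of rows over 520 bp, under 520 bp and of exactly 520 bp in 8 classes of rank by signal value in the optimal list (%). Right, each of the 262 wide intervals by its highest signal value and its width in bp (both axes log), coloured by number of summits; wide rows fell from 86.0% of ranks 1 to 50 to 1.28% of ranks 4001 to 7129, and the interval of 5280 bp stands apart at the top.

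The most strongly bound wide interval lay on 2R from 13583818 to 13585261, in introns of the overlapping genes CG45088 and CG6191 (signal value 5038, 1444 bp, 2 summits). It ranked 2, 1 and 1 in the lists of replicates 1, 2 and 3, and was 1280, 1349 and 1415 bp wide there. The next, upstream of ssp3 (signal value 4913, 1043 bp), ranked 1, 2 and 2. The widest interval spanned 5280 bp on 2R (13559779 to 13565058), of which 990 bp lay within gene bodies. Its strongest summit was intergenic and nearest to CG13334. The interval had 6 summits and a signal value of 4327, and ranked 3 in every replicate. Its width was 5130, 5213 and 5224 bp in the replicates, each of which placed 7 summits inside it. These 3 intervals thus kept the top 3 places in every replicate list. Intervals upstream of hll (3321) and Rh5 (2587) came next on the list of wide intervals. They were followed by one upstream of CG42808 (2468), one in an intron of CG11050 (2305), one in cno (2300), and one in sbb (2274), which encodes the corepressor Brakeless. Then came intervals at gish (2251), downstream of Rh5 (2089), in the kinase gene Tlk (2053), near the mitotic cyclin gene CycB (2031), in bmm, which encodes a lipase, with mop as its nearest start site (2012), and 334 bp upstream of Ten-m (2000), a teneurin gene of neuronal wiring. Of these 15 strongest, 9 had several summits, 6 lay in introns, 6 were intergenic and 3 lay at promoters. All 15 were found in the 3 replicates, where each ranked 34 or better.

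Most wide intervals held more than 1 summit. In all, 88 intervals (33.6%) had 1 summit, 159 (60.7%) had 2, 10 had 3, 3 had 4, 1 had 5 and 1 had 6. The 174 intervals with several summits were 66.4% of the total (95% Wilson interval 60.5 to 71.9%, counting error over intervals only). The median width was larger with more summits, from 592 bp for 1 summit to 681 bp for 2 and 1336 bp for 3. The 5 intervals with 4 or more summits were the one near CG13334, the one downstream of Rh5 (2L, 12009956 to 12012640, 2685 bp, 5 summits), the one over the 5' UTR of spen (2L, 160475 to 162281, 1807 bp, 4 summits), which encodes an RNA-binding nuclear protein, and a pair around CG42807 on 2R (2946 and 2096 bp, 4 summits each). In intervals with several summits, the second summit had a median of 45.2% of the signal value of the first (range 10.7 to 99.4%). Summit number and width come from the same call, and no test was made between them.

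Neighbouring summits inside a wide interval stood about 200 bp apart. Over 197 pairs the distance had a median of 204 bp (quartiles 201 and 215, range 199 to 1392), and 139 pairs (70.6%) were within 210 bp. Across the whole optimal list, too, none of 7123 neighbouring pairs of summits was closer than 199 bp. The common spacing therefore sits at the smallest distance that occurs anywhere in the list, and distances under 199 bp cannot be read from these files. In 16 pairs the distance was over 520 bp.

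**Figure D2:**
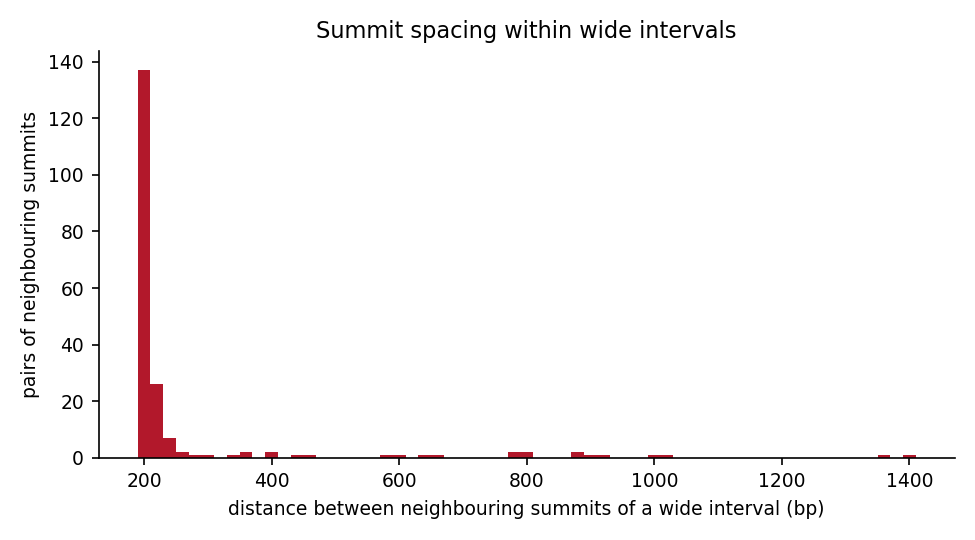
Number of neighbouring summit pairs (y axis) by their distance in bp (x axis, classes of 20 bp) for the 197 pairs inside wide intervals. Most pairs fall in the first class, near the shortest distance of 199 bp, and the longest is 1392 bp.

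Several summits in an interval were also seen in single replicates. Among the 174 intervals with several summits, 140, 151 and 145 held at least 2 summits of replicates 1, 2 and 3 (80.5%, 86.8% and 83.3%, mean 83.5 ± 3.17%, SD, n = 3), and 110 did in all 3. Among the 88 intervals with 1 summit the figures were 28.4%, 27.3% and 35.2% (mean 30.3 ± 4.30%, SD, n = 3), and 5 did in all 3. The groups were split by summit number in a pooled list made from the same alignments. Members with more summits were also wider, with a median of 681 bp for 2 summits against 592 bp for 1. The contrast is therefore a description only. The strongest summit of a multi-summit interval was the strongest in the replicate too in 87.9%, 95.4% and 89.1% of cases (mean 90.8 ± 4.02%, SD, n = 3). Of the 88 intervals with 1 optimal summit, 39 had at least 2 in the pooled list of 30000 rows, and 49 had 1 even there.

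The widths of single replicates were smaller than the pooled ones for most members. Over the strongest summit, replicates 1, 2 and 3 had an interval over 520 bp for 53, 127 and 82 of the 262 members (20.2%, 48.5% and 31.3%, mean 33.3 ± 14.2%, SD, n = 3). In all 3 replicates this held for 46 members (17.6%, Wilson interval 13.4 to 22.6%), in at least 1 for 138 (52.7%) and in none for 124. Without replicate 1, the share over 520 bp in both other replicates was 27.5%. Among the 4793 peaks of 520 bp the share over 520 bp in all 3 replicates was 0%, and no replicate had such an interval over any of them or of the 1877 narrower peaks. Members were selected by width and the pooled list was made from the same alignments, so this contrast is a description only. The usual width of a row was 496 bp in replicate 1, 510 bp in replicate 2 and 516 bp in replicate 3, and with each list's own usual width as the limit the share in all 3 was 19.5%. Of the 39 members wider than 1000 bp, 69.2%, 87.2% and 84.6% were over 520 bp in replicates 1, 2 and 3. The 46 members that were wide everywhere had a median pooled width of 1126 bp, and their replicate intervals reached a median of 74.9%, 91.1% and 85.4% of it. Of these 46, 40 had several summits, 10 lay at promoters, 16 in introns and 18 between genes.

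**Figure D3:**
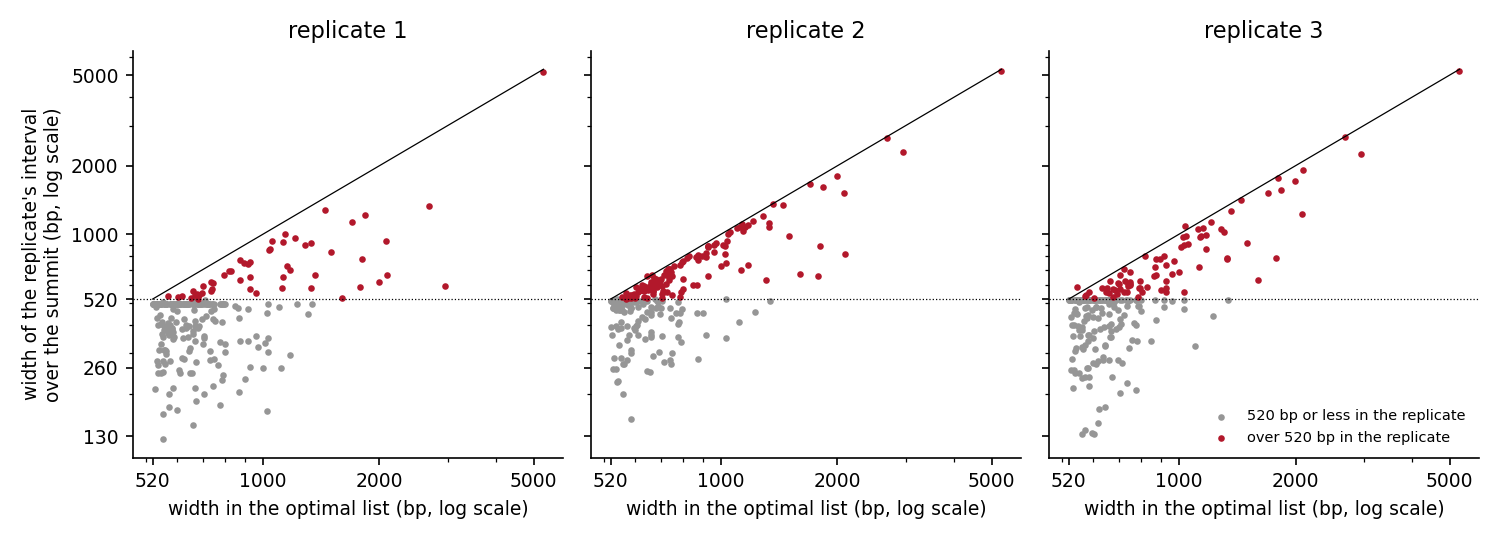
Width of each wide interval in the optimal list (x axis, bp, log scale) against the width of the interval over its strongest summit in each replicate (y axis, bp, log scale), with the line of equal width and a dotted line at 520 bp. Red points are over 520 bp in the replicate, 53, 127 and 82 of them, and most lie to the right.

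Widths of single members show the same spread. The interval downstream of Rh5 was 2685 bp in the pooled list and 1334, 2657 and 2661 bp in replicates 1, 2 and 3, with 5 summits in each. The interval over the 3' UTR of CG42807 was 2946 bp pooled and 594, 2288 and 2245 bp in the replicates. At the promoter of spi, the gene of an EGF-like ligand, the interval was 1992 bp pooled and 617, 1796 and 1721 bp in the replicates. Replicate 1 had the smallest width for each of these 3 members. In ph-p, a Polycomb group gene, the widths were 1133, 1670 and 1516 bp against 1699 bp pooled, and in Tlk they were 1214, 1621 and 1565 bp against 1836 bp. Near CG4004 the pooled width was 1780 bp and the replicates had 585, 655 and 790 bp. In an intron of beat-Ib, of a family of axon guidance genes, the pooled width was 2074 bp and the replicates had 935, 1524 and 1222 bp. In spen, replicate 3 (1766 bp) was close to the pooled 1807 bp and replicates 1 and 2 had 779 and 888 bp.

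Nearly all wide intervals were found in each replicate list. The optimal list was made from the same alignments, with a threshold on reproducibility, so the shares found are a description only. A member counted as found where a summit lay within 100 bp of its strongest summit among the 7129 strongest rows of that replicate. Replicates 1, 2 and 3 found 239, 257 and 246 of 262 (91.2%, 98.1% and 93.9%, mean 94.4 ± 3.46%, SD, n = 3). All 3 replicates found 225 members (85.9%, Wilson interval 81.1 to 89.6%), 30 were found in 2, 7 in 1 and none in 0. The share found in all 3 was 52.1% over all optimal peaks, 39.3% over 520 bp peaks and 79.3% over narrower peaks, which are weaker, with median signal values of 292, 252 and 456.

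At like signal value the share of wide intervals found was below that of other peaks in most replicates, by about the size of the spread between replicates. Signal value was divided into 10 classes with 26 or 27 wide intervals each, and the other peaks were weighted to the same classes. The 520 bp peaks reached only the lowest 4 classes, with 2023, 93, 9 and 4 peaks, so 105 wide intervals could be compared with them. Replicate 1 found 85.7% of wide intervals and 96.0% of 520 bp peaks, replicate 2 found 96.2% and 97.5%, and replicate 3 found 91.4% and 95.4%. The mean difference was -5.18 ± 4.57 points (SD, n = 3), lower in 3 of 3 replicates, with p = 0.25 by an exact two-sided sign-flip permutation test, the smallest p that 3 replicates allow. It was -2.65 points without replicate 1, and -0.629 points with only the 3564 strongest rows of each replicate. Without the 2 classes that hold under 20 such peaks, 53 wide intervals remained and the difference was -10.9, 1.08 and -4.02 points, with a mean of -4.60 ± 5.99 (SD, n = 3, exact sign-flip permutation p = 0.50). Peaks narrower than 520 bp reached every class, and against 1707 of them the difference over all 262 members was -6.89, -0.748 and -3.98 points (mean -3.87 ± 3.07, SD, n = 3, exact sign-flip permutation p = 0.25). With 3 replicates no difference of this kind can pass the usual threshold on p. The last 2 comparisons were added after the data were seen.

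The share found was lowest for the weakest members. With signal values from 262 to 486, 15 of 27 wide intervals (55.6%) were found in all 3 replicates, against 70.0% of 520 bp peaks and 78.7% of narrower ones. In that class replicate 1 found 66.7% of the wide intervals, replicate 2 found 96.3% and replicate 3 found 81.5%. Signal values within the class were not equal, with a median of 372 for wide intervals and 315 for 520 bp peaks. From 1645 upward, all 27 wide intervals were found in all 3 replicates. The distance used also matters: within 200 bp the share of members found in all 3 was 97.3% and the mean difference from 520 bp peaks of like signal was -0.672 points. Of the 37 members not found in all 3, 23 were missing in replicate 1, 5 in replicate 2 and 16 in replicate 3, and 25 had a replicate interval over their summit in every replicate. Over all 262 members the nearest replicate summit stood a median of 23, 11 and 19 bp away in replicates 1, 2 and 3. Other peaks in the same range of signal values were alike, with 25, 15 and 19 bp for 520 bp peaks and 18, 11 and 16 bp for narrower ones.

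**Figure D4:**
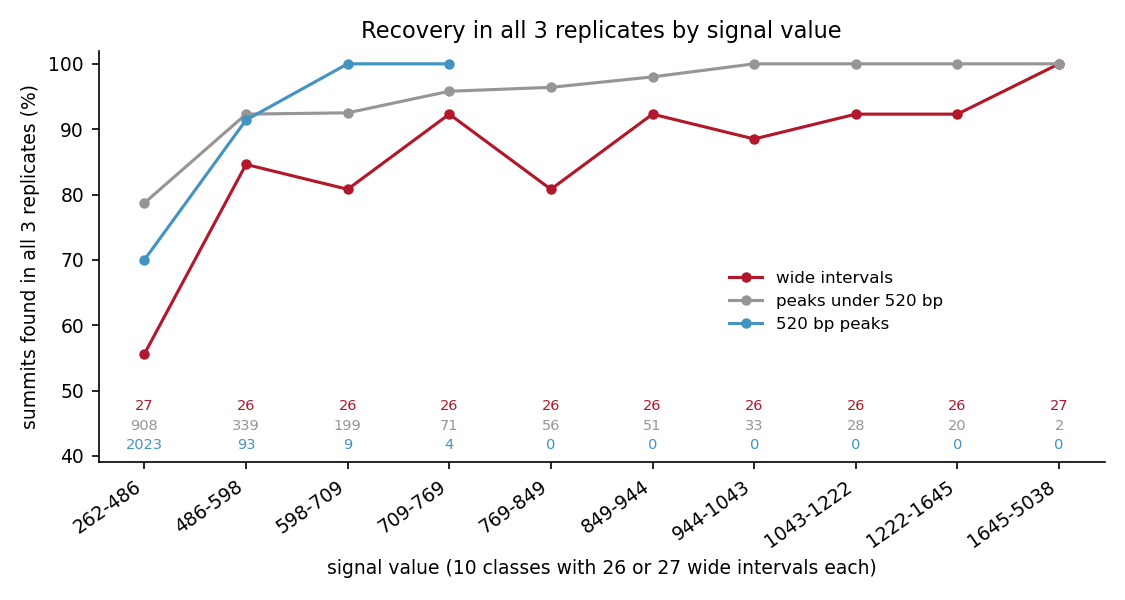
Share of strongest summits found within 100 bp in all 3 replicates (y axis, %, from 39) by signal value (x axis, 10 classes), for wide intervals, peaks under 520 bp and 520 bp peaks, with the number of each printed below the lines in the same colours. The wide intervals lie below the peaks under 520 bp in 9 of the 10 classes and reach 100% in the last.

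The 7 members found in 1 replicate had signal values from 307 to 1205. They included an intergenic interval 10102 bp upstream of Reg-2 (signal value 1205, rank 92) and an interval of 1175 bp with 3 summits in an intron of pyd (811), which encodes a junction protein of the ZO family. The others lay near CG14891 (695), Eaf6 (645) and Pli (445), at a start site of Trl (363) and in an intron of sbb (307). These 7 are named because they are all members of that class, chosen after their values were seen.

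In place in genes the wide intervals differed from other peaks of like signal, being less often at promoters and more often between genes. A strongest summit counted as promoter where a protein-coding start site lay within 500 bp, and otherwise took the first match among 5' UTR, coding exon, 3' UTR and intron, with all else called intergenic. Promoters held 59 members (22.5%, Wilson interval 17.9 to 28.0%), introns 105 (40.1%, 34.3 to 46.1%) and intergenic DNA 92 (35.1%, 29.6 to 41.1%). The rest were 2 in 5' UTRs, 3 in 3' UTRs and 1 in a coding exon, of bif. Over all optimal peaks the promoter share was 37.0% and the intron share 40.7%, and 1423 of 7129 were intergenic. Peaks narrower than 520 bp weighted to the same signal classes had 51.2% at promoters, 32.5% in introns and 13.6% between genes. In the highest class only 2 such peaks stood against 27 wide intervals. Without matching on signal, narrower peaks had 31.3% at promoters, 44.6% in introns and 21.8% between genes, a smaller gap at promoters and between genes. In the classes with at least 20 peaks of 520 bp, 17.0% of 53 wide intervals and 53.5% of 520 bp peaks lay at promoters, and 45.3% and 14.1% between genes.

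The replicates' own lists gave the same order, but the pooled list was made from the same alignments, so they are not separate evidence. Rows over the usual width among the strongest 7129 of each replicate merged into 62, 135 and 86 intervals. Narrower rows of like signal in the same list could be set against 62, 135 and 77 of these, since 9 of the intervals of replicate 3 stood in a class of signal value with no narrower row. The promoter share of the wide intervals differed from that of the narrower rows by -25.2, -24.0 and -26.6 points in replicates 1, 2 and 3 (mean -25.3 ± 1.30, SD, n = 3), and the intergenic share by 21.6, 24.8 and 27.9 points (mean 24.8 ± 3.17, SD, n = 3). Each had p = 0.25 in the exact two-sided sign-flip permutation test, the smallest it can give, with the same sign in 3 of 3 replicates. The intron share differed by 0.331, -0.0167 and 1.47 points (mean 0.594 ± 0.776, SD, n = 3, exact sign-flip permutation p = 0.50). Against rows at the usual width of each list, which shared classes of signal value with only 25, 54 and 52 of the wide intervals, the promoter share differed by -56.3, -36.0 and -55.2 points (mean -49.2 ± 11.4, SD, n = 3) and the intergenic share by 43.7, 11.6 and 29.4 points (mean 28.2 ± 16.1, SD, n = 3). There the intron share differed as well, by 6.03, 24.3 and 26.4 points (mean 18.9 ± 11.2, SD, n = 3), and each of these 3 means had p = 0.25 in the same exact permutation test. The direction at promoters and between genes was thus the same against both kinds of row in 3 of 3 replicates, while the intron difference depended on the rows compared.

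**Figure D5:**
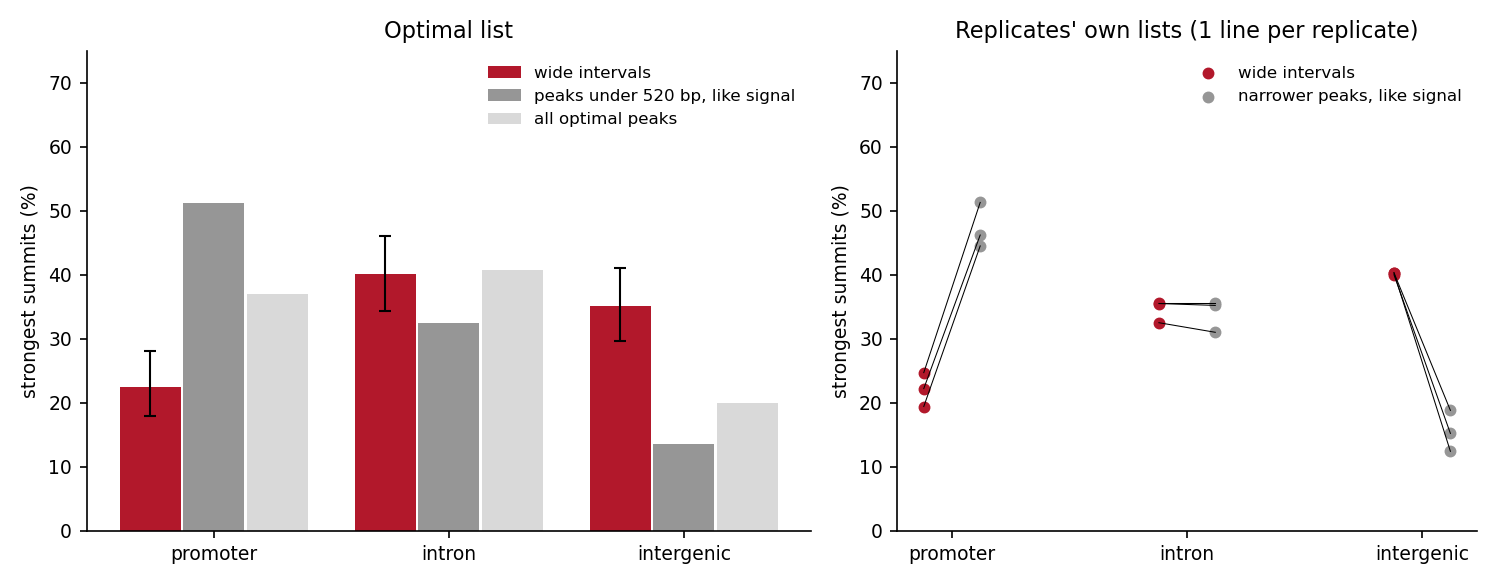
Left, share of strongest summits (y axis, %) at promoters, in introns and between genes for wide intervals (bars with 95% Wilson intervals), peaks under 520 bp weighted to the same signal values, and all optimal peaks. Right, the same shares in each replicate's own list, with wide intervals joined by a line to narrower peaks of like signal; promoter shares are lower and intergenic shares higher for wide intervals in 3 of 3 replicates.

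The wide intervals were made almost wholly of noncoding DNA. Of the 262, 252 contained no coding base, and 0.828% of their summed length was coding. Summits in coding exons were also rare over all optimal peaks, at 0.449% against 0.382% of members. A protein-coding start site lay inside 48 members (18.3%), against 36.3% of narrower peaks of like signal. Without matching on signal the share was 15.3% over all narrower peaks, below that of the members, and 31.9% over all 520 bp peaks. The nearest start site was a median of 2244 bp from the strongest summit, against 1126 bp for all 520 bp peaks and 1332 bp for all optimal peaks, and it was over 5 kb away for 76 members (29.0%). No member overlapped an annotated transposable element. Over all optimal peaks 0.126% of summits lay in one, a share so low that no difference can be read from this. The median GC content of the 200 bp around the summit was 47.3%, against 45.3% for all optimal peaks.

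Of the 6 short words searched, AGAGCA differed most from all optimal peaks in percentage points, while GAGAG differed most from narrower peaks of like signal. In the 200 bp around the strongest summit, AGAGCA on either strand was found in 54 members (20.6%, Wilson interval 16.2 to 25.9%), against 14.1% of all optimal peaks and 15.1% of narrower peaks of like signal. Against 520 bp peaks the order depended on the classes used: over the 4 shared classes it was 15.2% of wide intervals and 9.73% of 520 bp peaks, and over the 2 classes with at least 20 such peaks it was 11.3% and 13.8%. The word occurred 190 times in the 262 intervals, 0.924 times per kb against 0.554 in the genome, and 137 members held no copy at all. It was picked with earlier results of these data known, and the genome figure does not stand for other peaks. GAGAG was found in 111 members (42.4%, 36.5 to 48.4%), against 37.1% of all optimal peaks. CAGGTAG, bound by the early activator Zelda, was found in 11 (4.20%) against 3.00%, GATAAG, of GATA factors, in 23 (8.78%) against 9.37%, and CACGTG, an E-box, in 8 (3.05%) against 3.35%. TATCGATA, bound by DREF, was in none of the members, where a count of 0 leaves an upper Wilson bound of 1.45%, against 1.35% of all optimal peaks. In narrower peaks of like signal the shares were 35.9% for GAGAG, 2.12% for CAGGTAG, 9.22% for GATAAG, 3.57% for CACGTG and 2.35% for TATCGATA. All words were searched on both strands, and GAGAG can overlap AGAGCA. A match of letters is not a measured binding site.

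Many wide intervals stood close to another. With neighbours within 10 kb joined, 111 of 262 members (42.4%) stood in 40 groups of 2 or more, and 8 groups had at least 4. The same share was not worked out for other peaks, so it cannot be read as particular to wide intervals. The largest by number, on 3R from 25996545 to 26021401, had 8 intervals and 16 summits and lies in the Enhancer of split complex. A group on 2R from 13559779 to 13585261 had 7 intervals and 21 summits, and holds both the strongest and the widest member. A group of 5 around Rh5 on 2L (12003013 to 12012640) had 12 summits. By arm, 58 members lay on 2L, 62 on 2R, 51 on 3L, 65 on 3R, 26 on X and none on the fourth chromosome. The X thus held 9.92% of the wide intervals and 14.1% of all optimal peaks.

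In all, 370 of 13945 protein-coding genes (2.65%) had a wide interval over the gene or within 5 kb of it, and 142 had one in the gene itself. Genes of the latter kind were long, with a median of 17316 bp against 2166 bp over all genes. Rh5 (FBgn0014019), which encodes a blue-sensitive opsin, had the most, with 5 within 5 kb and none in the gene. The 14 genes with 4 included sbb, shn, Trl and beat-Ib, each with all 4 in the gene, and aop with 3 in the gene. CG45088, CG6191, Hacd1, E(spl)mbeta-HLH, CG42507, Tsen34, COX7AL2, Kaz-m1 and CG42807 also had 4, often shared with a neighbour, since CG45088 overlaps CG6191 and CG42507 overlaps Trl. An interval near several genes was counted for each, and the files do not tell which gene it acts on. Of 198 annotated genes in 15 lists of regulators and pathways, 44 (22.2%) had a wide interval by this measure. Any optimal summit was that near for 167 of the 198 (84.3%), against 45.4% of all protein-coding genes. The median length of the listed genes, 11840 bp, was also far above that of all genes, and the lists were made with earlier results known.

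Among the gap genes, 2 of 7 had a wide interval, knrl and kni itself. The interval 1203 bp upstream of knrl (FBgn0001323, 3L, 20621563 to 20622230, signal value 1682, 2 summits) ranked 26, 22 and 77 in replicates 1, 2 and 3. The interval 3110 bp downstream of the start of kni (FBgn0001320, 3L, 20690961 to 20691885, signal value 988, 2 summits) ranked 256, 105 and 346, and DNA from the transgene cannot be told apart from binding there. Of the pair-rule list, 1 of 10 had one, the nuclear receptor gene ftz-f1 (799), in an intron. None of the 10 Hox and cofactor genes and none of 16 heat shock genes had one, counts from which nothing can be read beside the 2.65% of all genes.

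All 12 annotated genes of the Enhancer of split list had a wide interval, most of them small Notch target genes that encode bHLH repressors or Bearded-family proteins. They share 10 distinct intervals, so they are not 12 separate cases beside the 2.65% of all protein-coding genes. The strongest, 351 bp upstream of E(spl)mbeta-HLH (FBgn0002733, 3R, 26005874 to 26007084, signal value 1647), was 1211 bp wide with 2 summits, ranked 91, 23 and 31 in the replicates and was 966, 1141 and 1136 bp wide there. The gene E(spl)malpha-BFM is within 5 kb of it too. An interval downstream of E(spl)mgamma-HLH and within 5 kb of E(spl)mdelta-HLH, had a signal value of 1238 and was 694, 1101 and 991 bp wide in the replicates. Of 12 genes of the Notch pathway proper, only the receptor gene N had one, an intronic interval of 1282 bp with 2 summits (857) that was 901, 1199 and 1055 bp wide in the replicates.

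Of all protein-coding genes, 2.65% had a wide interval over the gene or within 5 kb of it. Some optimal summit was that near for all 8 corepressor and cofactor genes, all 15 tracheal genes and 17 of 18 ecdysone genes. Of the 8 corepressor and cofactor genes, 5 had a wide interval. They were sbb (2274), Smr (1182), a corepressor of nuclear receptors, gro (945), whose protein Groucho works with many repressors, Gug (660), which encodes Atrophin, and brk (572), a repressor of Dpp targets. The interval of gro is shared with E(spl)m7-HLH, and CtBP had none. Of 15 tracheal genes, 4 had one, namely sbb, the forkhead gene fkh (1715, 247 bp upstream of its start site), knrl and kni. Of 18 genes of the ecdysone cascade, 5 had one, among them the nuclear receptor genes Hr3 (1065), Eip75B (991) and EcR (981), each in an intron. The EcR interval was 1131 bp with 3 summits and 929, 1112 and 974 bp in the replicates. For Eip75B no interval of replicate 3 covered the pooled summit, and widths in replicates 1 and 2 were 356 and 544 bp.

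Signalling genes were reached in part, beside the 2.65% of all protein-coding genes. Some optimal summit was within 5 kb for 14 of 16 Egfr and FGF genes and 21 of 22 Wnt, Hedgehog and Dpp genes. Of 16 genes of Egfr and FGF signalling, 3 had a wide interval: the ligand gene spi (1040), aos (956), which encodes a secreted inhibitor, and aop (954), an ETS repressor of the pathway. No receptor gene of the list did, from which nothing can be read beside the 2.65% of all genes. Of 22 genes of Wnt, Hedgehog and Dpp signalling, 6 did, led by shn (1273), a zinc-finger mediator of Dpp signals, Dad (1235), an inhibitory Smad, and arm (942), the fly beta-catenin. Of 13 BTB and other late zinc-finger genes, psq (1685) and Trl (1488) did, both of which encode proteins that bind GAGA sequences. Of 22 neural regulators, elav (1447), an RNA-binding protein of neurons, and grh (851), a factor of epithelia and neuroblasts, did. Of 19 genes of cell junctions and the cytoskeleton, 5 did, led by cno (2300), bif (1460) and arm (942). Of 14 genes of growth and metabolism, gish (2251), tara (1645) and dap (644), a cyclin-dependent kinase inhibitor, did. Some optimal summit was within 5 kb for 12 of 13 BTB and other late zinc-finger genes and 13 of 22 neural regulators. The same held for 18 of 19 junction and cytoskeleton genes and 12 of 14 growth and metabolism genes. The counts of wide intervals rest on the lists chosen, and nothing in them was tested.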

How the data were processed

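ChIP-seq peak lists of 3 biological replicates of 1 group were analysed. Per the deposited notes, the authors derived a narrowPeak list on dm6 from each replicate's alignments and 1 control, a pooled list from all replicates, and the optimal list from these by a threshold on the irreproducible discovery rate. Which aligner, caller, versions and threshold they used is not given in the sources used here. Signal values, as deposited, were used only within a list, to rank and match peaks. The optimal list equals the 7129 strongest rows of the pooled list, and the replicate and pooled lists stop at 30000 rows. Read depth is unknown, and Wilson intervals cover counting error only.

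Members and gene lists were chosen with earlier results of these data known. Overlapping rows over 520 bp were merged, and like signal means 10 quantile classes of the members' highest signal value. Rank in a replicate is that of the strongest replicate row covering the strongest summit, and width is that of the widest such row. Genes came from Ensembl release 115 and sequence from RefSeq, genome release 6, on 6 chromosome arms. Named were the 15 strongest and 10 widest members, those with 4 or more summits, the 10 genes with most members, up to 3 members per gene list with the strongest intervals, and the values at the width threshold. Genes of short lists beyond these were named after their values were seen. Replicates were compared by exact two-sided sign-flip permutation tests. Python 3.11.15, numpy 2.4.6, pandas 2.3.3 and scipy 1.17.1 were used, and the functions were tested on simulated data. The dm3 optimal list was used for a count only. Alternatives covered the width limit, merging, summit distance, classes of signal, promoter size, word window and leaving out each replicate.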

Additional observations from a re-analysis of the deposited data

How the results depend on the processing

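Raising the width limit on rows to 800 or 1000 bp before merging left 61 or 38 distinct intervals (39 of the merged intervals are over 1000 bp), and the dm3 optimal list gave 242 over its own usual width. The share with several summits was 74.0%, 86.9% and 94.7% over 600, 800 and 1000 bp. It was 52.1% among the 3564 strongest rows of the list, where weaker rows of the same interval are left out by construction. The share found in all 3 replicates was 53.8% within 50 bp, 97.3% within 200 bp, 92.7% with any replicate interval over the summit and 90.2% for widths over 800 bp. It ran from 86.6% to 92.4% with 1 replicate left out, and fewer replicates to pass raise it by construction. The difference in recovery from 520 bp peaks was 22.9 points with no classes of signal value, a reversed sign: 520 bp peaks are weaker, with a median of 252 against 849. With 1 replicate left out it ran from -7.09 to -2.65, and it was -0.629 points among the 3564 strongest rows of each replicate. Promoters held 11.1% within 250 bp, 32.1% within 1000 bp, 30.5% with start sites of all genes and 16.4% for widths over 800 bp, and from 22.0% to 22.9% with 1 replicate left out. AGAGCA was in 10.7% of 100 bp and 35.1% of 400 bp windows, against 7.31% and 25.1% of all optimal peaks. Members over 800 bp in all 3 replicates were 5.34%, and those over 520 bp were 17.6% to 27.5% with 1 replicate left out, the highest without replicate 1. The intron share moved by less than its interval under all 10 alternatives tried. Depth is unknown here, so no result could be weighed by it, and with 1 group and 1 control the replicates' spread is the only error available. No paired analysis was possible because the 3 samples form a single group.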
